A study of Mus musculus with 11 samples.

Results

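The response of BCR/ABL-expressing mouse bone marrow progenitors to the inhibitor pair DFC+BCI, given without imatinib, was measured by RNA sequencing and described across all detected genes. The 4 libraries compared were 2 of untreated BCR/ABL cells and 2 of BCR/ABL cells treated with DFC and BCI together for 4 h. A gene was included when it reached 1 FPKM (fragments mapped per kilobase of a transcript and corrected for depth, the unit of level used here) in at least 2 of these 4 libraries. By that rule 10998 of the 23444 rows of the expression table were taken, and all 10998 were tested. All cells were Kit+ bone marrow cells of C57BL/6 mice, selected on CD117 beads, cultured with FLT3, IL-6, IL-3 and mSCF, transduced with a retrovirus carrying BCR/ABL and YFP, and sorted for YFP. The labels name no vehicle-treated group and no group given DFC or BCI alone, so the effects of solvent, handling, DFC and BCI cannot be told apart. The cells carry a transduced oncogene in place of a patient's chromosome translocation, and the labels leave unstated if each duplicate is a separate animal or culture. P-values here measure the spread between such duplicates, which may be technical. The study asks if inhibiting the FOS and DUSP1 proteins mimics loss of their genes. All 11 libraries of the series were fitted together, and the spread came from 4 duplicate pairs: the 2 compared, a pair with imatinib, the clinical BCR/ABL inhibitor, and a pair with imatinib, DFC and BCI together (the 3-drug libraries). The other 3 libraries, a vector control and c-Fos-/-Dusp1-/- BCR/ABL cells without and with imatinib, were single and gave no spread. The libraries of a pair are called a and b.

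BCR/ABL is the fusion kinase of chronic myeloid leukaemia and drives growth through RAS and ERK, STAT5 and PI3K signalling. FOS joins JUN proteins to form the AP-1 transcription factor, and its gene is switched on within minutes of growth factor signalling. DUSP1 and DUSP6 are phosphatases that remove the activating phosphates from MAP kinases, DUSP6 preferring ERK in the cytoplasm and DUSP1 acting on p38, JNK and ERK in the nucleus. DFC is difluorinated curcumin, used here as a FOS inhibitor, and BCI inhibits DUSP6 and DUSP1. Cells under protein or redox stress use separate programmes: HSF1 switches on chaperones, ATF4 switches on amino acid and stress genes when eIF2 is phosphorylated, and NRF2 switches on glutathione and haem genes.

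The promoters of 5 genes with large rises are shown because they carry, in capitals, the letters of elements bound by the factors of these programmes. Each is the 250 bases before the RefSeq start, written 5′ to 3′ on the gene's strand in GRCm38.p6. Capitals mark GAANNTTC, the paired unit of the heat shock element, in Hspa1a (chr17:34972157-34972406, minus strand) and Hspa1b (chr17:34959239-34959488, minus strand). They mark TGACGTCA, the cyclic AMP response element to which CREB and ATF proteins bind, in Dusp1 (chr17:26508473-26508722, minus strand) and Ppp1r15a (chr7:45526269-45526518, minus strand). They mark TGATGNAA, the C/EBP-ATF element to which ATF4 and CHOP bind, in Chac1 (chr2:119350992-119351241, plus strand), where it reads TTGCATCA because the match lies on the other strand.
Hspa1a: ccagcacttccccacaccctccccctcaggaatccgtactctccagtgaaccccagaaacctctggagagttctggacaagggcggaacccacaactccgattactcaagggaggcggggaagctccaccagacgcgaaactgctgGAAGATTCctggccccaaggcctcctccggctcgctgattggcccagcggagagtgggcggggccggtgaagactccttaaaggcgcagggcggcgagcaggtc
Hspa1b: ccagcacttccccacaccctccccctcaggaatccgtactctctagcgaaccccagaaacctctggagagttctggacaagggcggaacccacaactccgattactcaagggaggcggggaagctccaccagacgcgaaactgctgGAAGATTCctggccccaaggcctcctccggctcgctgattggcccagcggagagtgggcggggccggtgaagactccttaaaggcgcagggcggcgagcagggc
Dusp1: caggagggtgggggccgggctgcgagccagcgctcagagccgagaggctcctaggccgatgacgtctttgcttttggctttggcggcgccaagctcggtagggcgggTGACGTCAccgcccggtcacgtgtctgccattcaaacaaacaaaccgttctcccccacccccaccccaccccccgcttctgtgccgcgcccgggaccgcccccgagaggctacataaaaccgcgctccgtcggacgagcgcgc
Ppp1r15a: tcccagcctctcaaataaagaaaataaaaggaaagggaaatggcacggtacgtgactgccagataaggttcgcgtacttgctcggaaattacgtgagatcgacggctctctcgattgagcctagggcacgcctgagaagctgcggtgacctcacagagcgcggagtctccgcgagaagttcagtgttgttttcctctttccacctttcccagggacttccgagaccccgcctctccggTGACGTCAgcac
Chac1: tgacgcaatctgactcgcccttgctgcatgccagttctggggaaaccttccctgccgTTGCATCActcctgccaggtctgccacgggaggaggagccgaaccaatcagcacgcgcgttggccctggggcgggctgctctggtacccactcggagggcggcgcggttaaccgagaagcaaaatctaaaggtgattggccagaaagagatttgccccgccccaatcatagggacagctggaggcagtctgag
The Hspa1a and Hspa1b windows share 98.8% of their 250 bases, and the element begins 104 bases before the start in both. It begins 143 bases before the start of Dusp1, 12 before that of Ppp1r15a and 193 before that of Chac1.

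After 4 h of DFC+BCI, transcripts of inducible chaperones, stress-response factors, AP-1 subunits and MAP kinase phosphatases were higher, among them Hspa1a, Chac1, Dusp1 and Jun. Falls were smaller and were frequent among genes of mitosis, cytokine receptors and stem and neutrophil identity. Of the 10998 genes, 2006 rose (18.2%) and 2088 fell (19.0%) at an adjusted p under 0.05 in limma, 37.2% in all. The rises were larger: 313 genes rose at least 2-fold (2.85%) and 58 fell at least 2-fold (0.527%), and at 4-fold the numbers were 48 and 10. The median log2 fold change was -0.04 over all genes, 0.49 among those that rose and -0.37 among those that fell. Among genes, 25 differed 2-fold between the untreated duplicates and 21 between the DFC+BCI duplicates, against 387 between the group means. Without DFC+BCI library a, 2112 genes were called (1250 up, 862 down), and without library b 2498 were called (1349 up, 1149 down). Of the genes, 274 reached the level minimum in 1 group only, which selects for a difference (156 rose and 48 fell). The other 10724 gave 1850 rises (17.3%) and 2040 falls (19.0%), and the gene lists are counted over such genes, against these shares. At 2-fold or more these 10724 genes gave 267 rises and 52 falls, while the 4-fold counts were not split in this way.

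**Figure D1:**
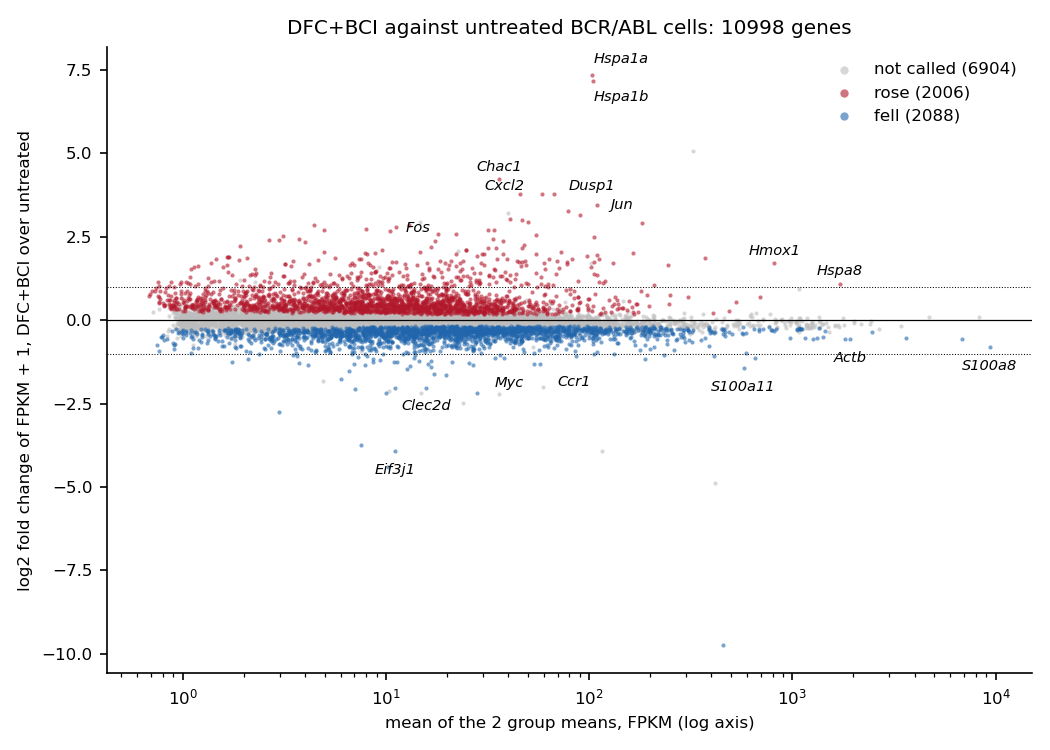
Log2 fold change of FPKM + 1, DFC+BCI over untreated, against the mean level in FPKM (log axis) for 10998 genes; red points rose, blue points fell and grey points were not called, and dotted lines mark 2-fold. Rises reach 7.33 (Hspa1a), and the falls beyond -4 that were called are short RNA genes listed at 0 with DFC+BCI.

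Rises and falls were spread unequally over the range of levels, as the plot of change against level shows. Among the 2726 genes under 5 FPKM, 21.1% rose and 11.5% fell. Among the 756 genes at 100 FPKM or more, 7.54% rose and 32.5% fell. The genes that rose held 5.98% and 6.38% of all FPKM in the untreated libraries and 11.5% and 11.1% with DFC+BCI. Those that fell went from 30.4% and 32.5% to 24.5% and 25.2%. FPKM are shares of a library, so a rise in some transcripts lowers the share left for others. The libraries summed to 464582 to 527875 FPKM, and 10765 to 10925 genes reached 1 FPKM in each.

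The labelled cell type was checked against marker genes. All 10 stem and progenitor markers, Kit among them, were detected, and summed to 687 and 693 FPKM untreated and to 405 and 424 FPKM with DFC+BCI. Ly6a made up as much as 499.7 FPKM of this. The highest marker levels belonged to the neutrophil lineage, where S100a8, a calcium-binding alarmin, went from 11121 and 12712 to 6868 and 6841 FPKM. The 13 neutrophil markers summed to 24760 and 25554 FPKM untreated and to 15847 and 16566 FPKM with DFC+BCI. Most of this was S100a8 and S100a9, together at 19376 and 20802 FPKM untreated and at 12181 and 12645 FPKM with DFC+BCI. The B cell list summed to 4.67 and 3.18 FPKM untreated and to 3.62 and 3.42 FPKM with DFC+BCI, with Pax5, Ebf1 and Ms4a1 at or below 0.129 FPKM and Cd79b up to 2.72 FPKM. The T and NK cell list summed to 21.1 and 17.6 FPKM and to 17.6 and 14.7 FPKM, of which up to 19.4 FPKM was Nkg7, while Cd3e, Cd3g, Cd3d and Cd4 were at or below 0.0633 FPKM. The stromal and endothelial list summed to 42.4 and 39.3 FPKM and to 29.8 and 31.3 FPKM, of which up to 38.2 FPKM was Pecam1, while Col3a1 was listed at 0 in all 4 libraries. The 9 listed monocyte markers summed to 1918 and 1917 FPKM untreated and to 1377 and 1389 FPKM with DFC+BCI. Lyz2 made up as much as 1575 FPKM of this, and Cx3cr1, below the level minimum, at most 0.314 FPKM. The stem, neutrophil and monocyte sums were all lower with treatment, and their part in the other results was not tested.

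The transcripts of the intended targets were higher with DFC+BCI. A single value in parentheses after a gene is its log2 fold change of FPKM + 1, followed by its adjusted p where the gene was not called. Fos was at 5.09 and 4.81 FPKM in the untreated libraries and 29.1 and 30.9 FPKM with DFC+BCI. The groups did not overlap, and the rise was 6.06-fold in mean FPKM (log2 fold change 2.38, SE 0.0861, adjusted p = 6.5e-06). Dusp1 was at 8.22 and 8.46 FPKM in the untreated libraries and 119.6 and 133 FPKM with DFC+BCI. Both treated libraries lay far above both untreated ones, a 15.1-fold difference in mean FPKM (log2 fold change 3.77, SE 0.101, adjusted p = 2.63e-06). Dusp6, transcribed in response to ERK and coding for the other phosphatase that BCI inhibits, was at 19.0 and 17.9 FPKM in the untreated libraries and 27.3 and 26.2 FPKM with DFC+BCI. That rise was 1.45-fold (log2 fold change 0.51, SE 0.0902, adjusted p = 0.00471), smaller than those of Fos and Dusp1 though the groups again did not overlap. RNA levels do not measure whether the FOS, DUSP1 or DUSP6 proteins were inhibited.

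AP-1 and ATF genes code for the FOS, JUN, MAF and ATF proteins that pair to bind AP-1 and cyclic AMP response elements. Of the 26 counted, 15 rose and 1 fell, with a median log2 fold change of 0.43. Jun, the main partner of FOS, was at 18.9 and 16.3 FPKM in the untreated libraries and 206 and 196 FPKM with DFC+BCI, and the treated libraries lay an order of magnitude above the untreated ones (log2 fold change 3.44, SE 0.166, adjusted p = 1.82e-05). Atf3, a stress-induced repressor, rose from 32.1 and 30.8 to 191 and 170.3 FPKM (2.48), and Maff, a small MAF that pairs with NRF2, rose by 2.79. Fosl2 rose by 1.70, and Fosb and Fosl1, which were under 1 FPKM untreated, reached 6.67 and 7.32 FPKM and 4.14 and 3.57 FPKM. Junb rose from 53.4 and 35.9 to 174 and 172 FPKM (1.96), and its untreated duplicates differed more than those of Jun. Atf7, chosen after its value was seen, was the member that fell (-0.43, not past the threshold in 9 of 19 alternatives). Atf1 (-0.04, adjusted p = 0.611) and Atf6b (0.01, adjusted p = 0.957) were not called.

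The other early response factors moved in the same direction as AP-1. Of 29 Egr, Nr4a, Klf and related genes, 22 rose and 2 fell, with a median of 0.66. Egr1, a zinc finger factor switched on by ERK and SRF, was at 11.1 and 11.2 FPKM in the untreated libraries and 43.2 and 47.3 FPKM with DFC+BCI (1.93). Klf11 rose by 2.73, Csrnp1 by 2.71, Ier3, a modulator of survival signalling, by 2.00 and Klf10, which is induced by TGF-beta, by 1.97. Nr4a1, an orphan nuclear receptor, rose from 3.18 and 3.25 to 8.84 and 9.07 FPKM (1.24). The falls were in Egr3 (-0.72) and Klf13 (-0.61). Srf, the factor that drives many of these genes, was not called (0.19, adjusted p = 0.474).

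MAP kinase phosphatases besides Dusp1 and Dusp6 also rose. Of 16 counted, Dusp1 and Dusp6 among them, 8 rose and 1 fell, the fall being in Dusp22 (-0.58). Dusp16, which acts on JNK, went from 5.01 and 5.82 to 28.0 and 28.1 FPKM (2.18). Dusp4, a nuclear phosphatase of ERK, went from 2.82 and 2.50 to 12.3 and 11.9 FPKM (1.84), and Dusp10, which acts on p38 and JNK, went from 1.78 and 1.84 to 5.61 and 6.23 FPKM (1.30). Dusp8 stayed below 0.1 FPKM untreated and reached 2.37 and 2.06 FPKM with DFC+BCI. Dusp3 (-0.14, adjusted p = 0.182) and Dusp11 (-0.15, adjusted p = 0.0992) were not called. The 16 include Dusp11 although its product acts on RNA and not on MAP kinases. The median of the list was 0.10, well below the changes of these members.

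Receptor feedback genes, whose products damp signalling from growth factor and cytokine receptors, rose in 13 of 19 cases and fell in 1. Errfi1, an inhibitor of EGF receptors, went from 2.21 and 2.57 to 23.9 and 23.3 FPKM (2.86). Phlda1 rose by 2.15 and Socs3, an inhibitor of JAK signalling, by 1.97. Socs1, a related JAK inhibitor, was the member that fell, from 80.1 and 63.9 to 36.0 and 35.1 FPKM (-0.99). Among 39 genes of the MAP kinase cascades 11 rose and 4 fell (without DFC+BCI library b 1 fell, and 2 without untreated library a, DFC+BCI library a, or 3-drug library a or b). The Gadd45 genes, which activate the kinase MTK1 upstream of p38 and JNK, led them: Gadd45g rose by 3.00, Gadd45a by 2.12 and Gadd45b by 2.05. Map3k8, a kinase upstream of ERK, rose by 1.41.

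**Figure D2:**
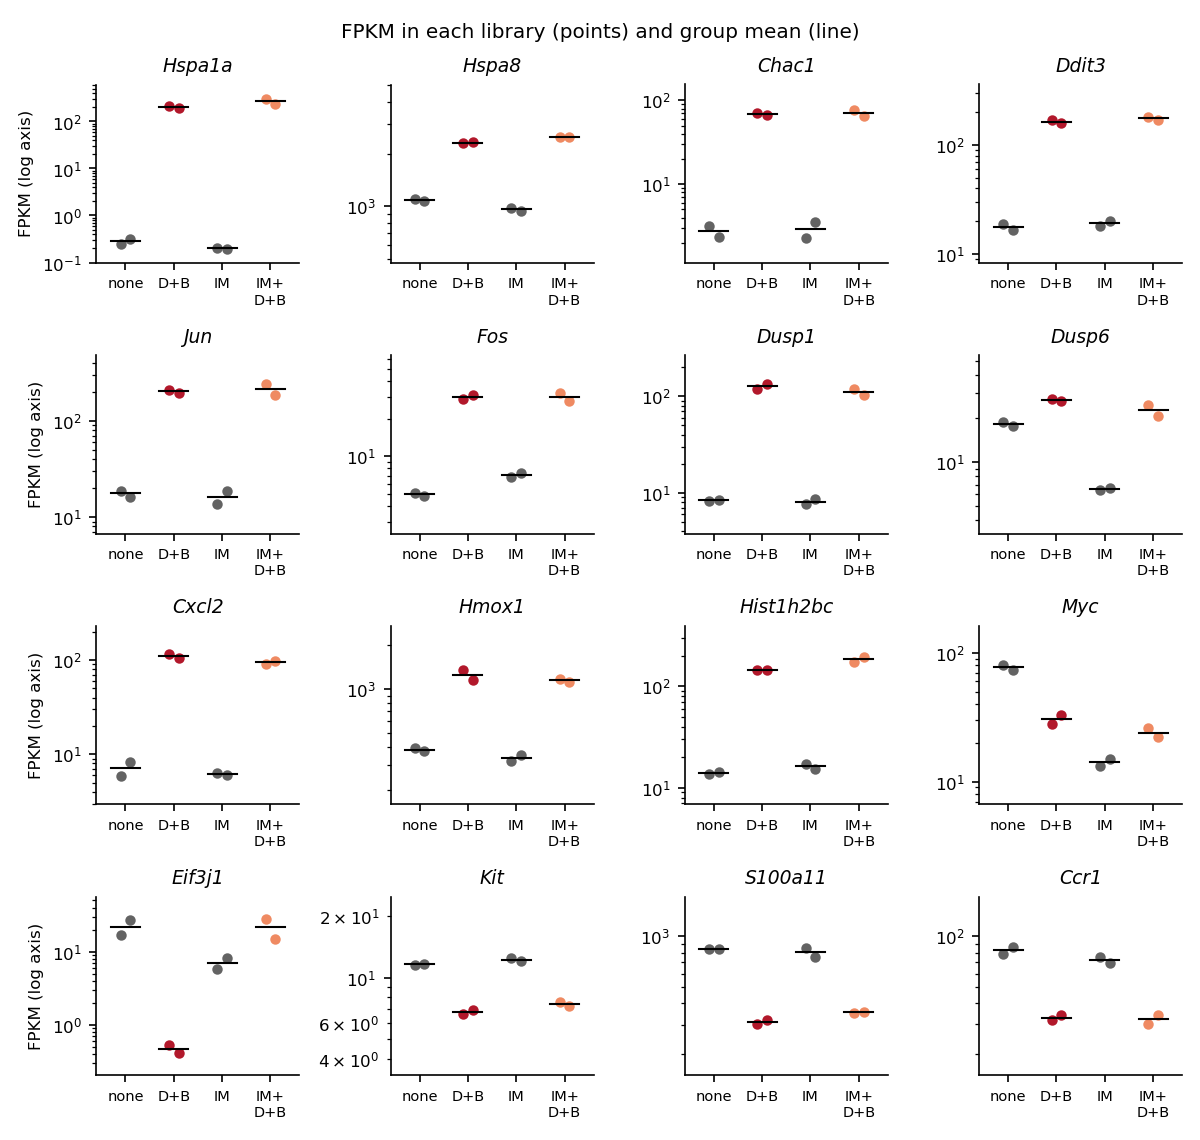
FPKM (log axis) of 16 genes in the 8 libraries of the 4 duplicate groups: untreated (none), DFC+BCI (D+B), imatinib (IM) and all 3 drugs (IM+D+B); points are libraries and lines group means. Hspa1a is below 1 FPKM without DFC+BCI and at 195 FPKM or more with it, and Myc and Dusp6 are lower with imatinib than untreated.

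The highest log2 differences of all belonged to inducible HSP70 genes, whose products refold damaged proteins. Hspa1a was at 0.253 and 0.314 FPKM in the untreated libraries and 218 and 195 FPKM with DFC+BCI. Its copy Hspa1b was at 0.515 and 0.366 FPKM in the untreated libraries and 216 and 199 FPKM with DFC+BCI. Both were below the level minimum untreated and entered only through the DFC+BCI libraries, so their log2 differences of 7.33 and 7.18 are given as a description, with no test. Reads may have been divided between these near-identical genes. Of the 11 other HSP70-family genes counted, which reached the level minimum in both groups, 6 rose and 0 fell. Hspa8, the constitutive cytosolic HSP70, went from 1108 and 1074 to 2311 and 2344 FPKM (1.09), and the exchange factor Hsph1 rose by 1.57. The mitochondrial Hspa9 was not called (-0.05, adjusted p = 0.576). Hspa5, the HSP70 of the endoplasmic reticulum, rose by 0.28 (adjusted p = 0.0231; not past the threshold in 3 of 19 alternatives). Hsf1, whose product switches these genes on, was not called (0.06, adjusted p = 0.818).

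Of 21 J-domain genes, which feed clients to HSP70, 4 rose and 4 fell, shares near those of all genes (2 fell without any 1 of the 4 libraries compared). The risers were Dnajb4 (1.79), Dnajb1 (1.67), Dnaja1 (0.99) and Dnaja4 (0.96), all partners of cytosolic HSP70. Of 32 small heat shock, HSP90, co-chaperone and chaperonin genes 4 rose and 4 fell, shares below those of all genes, with a median of -0.06. The falls were 0 without untreated library a or DFC+BCI library a, and 1 without DFC+BCI library b or either 3-drug library. Bag3, an HSP70 co-chaperone of selective autophagy, went from 11.2 and 9.47 to 36.1 and 35.6 FPKM (1.71). Hsp90aa1, the inducible cytosolic HSP90, rose by 0.70, while the constitutive Hsp90ab1 (0.06, adjusted p = 0.548) and the mitochondrial chaperonin gene Hspd1 (-0.06, adjusted p = 0.496) were not called. Hspb1, a small heat shock protein, was at 0.108 and 0.0574 FPKM untreated and at 2.32 and 2.30 FPKM with DFC+BCI.

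Of 50 proteasome genes 3 rose and 12 fell, the falls at a share near that of all genes, with a median of -0.13 (7 fell without DFC+BCI library a, and 6 after centring by transcript length). The rises were in Zfand2a (from 15.8 and 16.3 to 83.6 and 75.6 FPKM; 2.24) and Zfand5 (1.43), arsenite- and stress-linked proteasome adaptors, and in Psme4, a proteasome activator gene (0.42). Core and assembly genes were among the falls, such as Pomp (-0.64), a proteasome assembly factor, and Psma2 (-0.43). Of 33 ubiquitin and autophagy genes 13 rose and 1 fell, with a median of 0.19. Sqstm1, which codes for the autophagy receptor p62, went from 171 and 149 to 618 and 556 FPKM (1.87). Atg14 (1.47) and Ulk1 (1.23), which start autophagosome formation, rose too.

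The integrated stress response lowers translation through eIF2 phosphorylation and raises ATF4 and its targets. Of 21 of its regulators and targets 13 rose and 1 fell, with a median of 0.60. The fall was in Eif2ak2, which codes for the RNA-activated eIF2 kinase PKR (-0.61). Chac1, a glutathione-degrading enzyme and ATF4 target, was at 3.20 and 2.34 FPKM in the untreated libraries and 71.2 and 67.0 FPKM with DFC+BCI. The treated mean was 24.9-fold the untreated one, without overlap (log2 fold change 4.23, SE 0.172, adjusted p = 9.84e-06). Ddit3, which codes for the death-linked factor CHOP, went from 18.6 and 16.5 to 169 and 158 FPKM (3.15). Ppp1r15a, which codes for GADD34 and reverses eIF2 phosphorylation, went from 9.45 and 7.06 to 73.9 and 73.8 FPKM (3.03). Ddit4 (2.54) and Sesn2 (2.16), both of which restrain mTORC1, and the pseudokinase gene Trib3 (2.17) rose as well. Atf4 itself, which is controlled mainly through translation, rose by 0.69, and Eif2s1, the gene of the phosphorylated subunit, was not called (-0.01, adjusted p = 0.896).

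Downstream amino acid supply genes rose by less. Of 37 amino acid transporter and synthesis genes 11 rose and 1 fell, with a median of 0.12. The transporters Slc1a4 (1.42), Slc38a2 (1.17) and Slc3a2 (0.88) were among the risers. The serine synthesis genes Psat1 (0.02, adjusted p = 0.838) and Phgdh (-0.15, adjusted p = 0.497) were not called. Of 20 cytoplasmic tRNA synthetases 4 rose and 2 fell, the rises at a share near that of all genes, with a median of 0.03. Aars (0.78), Cars (0.51) and Nars (0.37) were among the rises. The falls were lost without untreated library a or either DFC+BCI library. Of 38 endoplasmic reticulum stress genes 11 rose and 4 fell, and 6 rose and 1 fell without DFC+BCI library a (1 fell without library b or without untreated library a). Dnajb9 (from 10.9 and 12.5 to 62.5 and 65.5 FPKM; 2.36), Herpud1 (1.68) and the sensor gene Ern1 (1.00) rose. The abundant folding genes Hsp90b1 (-0.14, adjusted p = 0.281) and P4hb (0.02, adjusted p = 0.846) were not called.

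Redox genes moved in both directions. Of 37 antioxidant and glutathione genes 13 rose and 9 fell, with a median of -0.01, and 4 fell without DFC+BCI library a. Hmox1, haem oxygenase, was already abundant and went from 389 and 374 to 1357 and 1145 FPKM, the treated libraries lying above the untreated ones without overlap (log2 fold change 1.71, SE 0.0937, adjusted p = 2.87e-05). Osgin1, an oxidative stress-induced growth inhibitor, rose by 2.71, the thioredoxin inhibitor Txnip by 1.36, Srxn1, which repairs peroxiredoxins, by 1.53 and Gclc, the limiting enzyme of glutathione synthesis, by 1.32. Nfe2l2, which codes for NRF2, rose by 0.67. Txn1 (-0.18, adjusted p = 0.0582) and Gpx1 (-0.10, adjusted p = 0.685) were not called. Of 33 metallothionein, zinc and iron genes 7 rose and 5 fell, shares near those of all genes. The copper pump gene Atp7a (1.03) and the zinc exporter gene Slc30a1 (0.45) rose, and the zinc importer gene Slc39a1 (-0.65) and the transferrin receptor gene Tfrc (-0.45) fell. The ferritin genes Fth1 (0.08, adjusted p = 0.530) and Ftl1 (0.10, adjusted p = 0.583), among the most abundant transcripts, were not called.

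Inflammatory transcripts that answer NF-kB and AP-1 rose, and others of the same kind fell. Of 28 NF-kB subunit and feedback genes 17 rose and 2 fell, with a median of 0.39. Without DFC+BCI library a, 10 rose and 0 fell, and the falls were 0 without DFC+BCI library b or untreated library b and 1 without untreated library a or either imatinib library. Nfkbiz, a co-activator of secondary response genes, went from 2.63 and 2.64 to 14.3 and 12.8 FPKM (1.99), Rel rose by 1.55 and Tnfaip3, which codes for the feedback inhibitor A20, by 1.44. Nfkb1 (-0.10, adjusted p = 0.301) and Rela (0.15, adjusted p = 0.213) were not called. Of 38 chemokine and cytokine genes 11 rose and 7 fell, the falls at a share near that of all genes (4 fell without DFC+BCI library a). Cxcl2, a neutrophil chemoattractant, was at 5.91 and 8.37 FPKM in the untreated libraries and 115 and 105 FPKM with DFC+BCI, a difference far beyond the spread of the duplicates (log2 fold change 3.78, SE 0.137, adjusted p = 6.5e-06). Gdf15, a stress hormone, went from 6.17 and 4.62 to 98.5 and 74.2 FPKM (3.77), Hbegf, an EGF receptor ligand, rose by 2.66 and Vegfa by 1.52. Il6 fell, from 28.7 and 30.6 to 18.7 and 19.0 FPKM (-0.63), and Ccl2 (-0.03, adjusted p = 0.811) and Ccl6 (-0.14, adjusted p = 0.158) were not called.

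Genes that destabilise mRNA or restrain growth rose far more often than they fell. Of 27 counted, 15 rose and 2 fell, with a median of 0.38. The falls were 0 without either DFC+BCI library or untreated library b, and 1 without untreated library a or either imatinib library. Zfp36, which codes for the AU-rich element binding protein tristetraprolin, was at 41.8 and 41.7 FPKM in the untreated libraries and 324 and 321 FPKM with DFC+BCI, with duplicates almost equal in each group (log2 fold change 2.92, SE 0.0562, adjusted p = 5.86e-07). Pnrc1 rose by 1.83, Btg2 by 1.75, the RNase gene Zc3h12c by 1.70 and Tob1, which recruits the deadenylase, by 1.65. Cnot1, the scaffold of that deadenylase complex, was not called (-0.05, adjusted p = 0.582).

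p53-linked and FOXO-linked genes rose more often than they fell. Of 34 p53-linked genes 18 rose and 5 fell, with a median of 0.30. The falls were 0 without DFC+BCI library a, 1 without library b, 2 without untreated library a and 3 without any 1 imatinib or 3-drug library. Plk2 (from 10.1 and 11.3 to 92.7 and 85.5 FPKM; 2.94) and Plk3 (2.43), stress-responsive kinases, and the cell cycle inhibitor gene Cdkn1a (0.75) rose, and Bax (0.06, adjusted p = 0.740) and Ccng1 (-0.07, adjusted p = 0.397) were not called. Of 23 FOXO-linked genes 14 rose and 3 fell (1 fell without either DFC+BCI library or without untreated library b), among them Irs2 (1.69), Trib1 (1.68) and Ccng2 (1.31). In the BCL2 family and caspases, which set the threshold of apoptosis, 6 of 28 rose and 10 fell (4 without DFC+BCI library a, 6 without library b). These rises were at a share near that of all genes. The death-promoting BH3-only genes Bbc3 (from 6.72 and 3.82 to 25.6 and 22.6 FPKM; 2.04), Pmaip1 (1.82) and Bcl2l11 (1.21) rose. The survival genes Bcl2a1a (from 24.6 and 24.6 to 12.5 and 12.3 FPKM; -0.94) and Bcl2a1d (-0.90), which are near-identical copies, fell, and the survival gene Mcl1 rose by 0.37.

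Genes of mitosis fell far more often than they rose, and those of DNA replication moved in both directions. Of 49 G2/M and mitosis genes 28 fell and 1 rose, with a median of -0.29, and 11 fell without DFC+BCI library a. The rise was in Ndc80, a kinetochore gene (0.27, not past the threshold in 4 of 19 alternatives). Kif2c, a kinesin of chromosome segregation, went from 20.4 and 18.4 to 10.7 and 11.7 FPKM (-0.75). Ccnb1 (-0.62) and Cdk1 (-0.58), the cyclin and kinase that start mitosis, and the checkpoint gene Mad2l1 (-0.64) fell by less than 2-fold. Cks1b (-0.07, adjusted p = 0.653) and Cks2 (-0.10, adjusted p = 0.331) were not called. Of 48 DNA replication genes 5 rose and 11 fell, the falls at a share near that of all genes. The falls were 2 without DFC+BCI library a, 6 without library b, 4 without untreated library a and 7 without untreated library b, and 3 rose without either DFC+BCI library. Rrm1, a subunit of ribonucleotide reductase, fell by 0.45 and the licensing genes Orc4 (0.80) and Cdc6 (0.50) rose, while Pcna (-0.23, adjusted p = 0.0685) and Mcm6 (-0.17, adjusted p = 0.0783) were not called.

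MYC drives ribosome production and growth, and its gene fell. Myc was at 80.9 and 73.9 FPKM in the untreated libraries and 27.8 and 32.9 FPKM with DFC+BCI. Both treated libraries lay well below both untreated ones, a 2.55-fold lower mean (log2 fold change -1.32, SE 0.114, adjusted p = 0.000235). Mxd1, whose product competes with MYC for its partner MAX, went the other way, from 40.9 and 38.3 to 85.1 and 77.3 FPKM (1.02), and Max itself was not called (-0.03, adjusted p = 0.749). Among G1 regulators the cyclin genes Ccnd2 (-0.54) and Ccne1 (-0.60) fell and the inhibitor gene Cdkn1b rose by 0.78. Over the 26 G1 genes 5 rose and 7 fell, the rises at a share near that of all genes. Without DFC+BCI library a 3 rose and 3 fell, and 3 fell without library b and 4 without untreated library a.

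**Figure D3:**
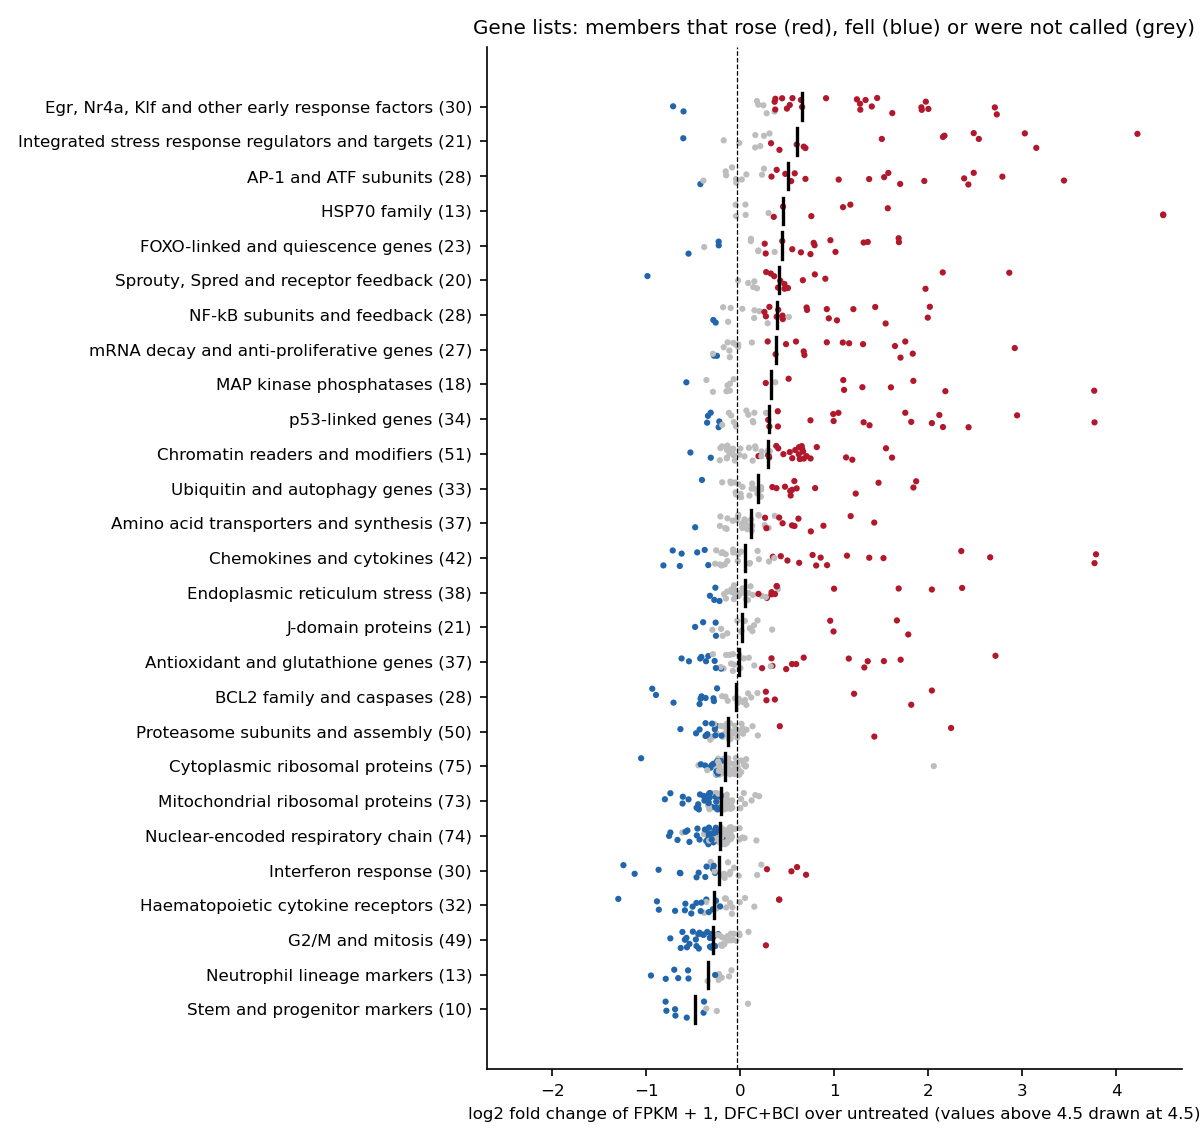
Log2 fold change of each detected member of 27 gene lists, DFC+BCI over untreated; red members rose, blue members fell and grey ones were not called, black bars are list medians and the dashed line is the median of all genes. The median of the early response factors lies to the right of the dashed line and that of the stem and progenitor markers to its left; members that reached the level minimum in 1 group only are drawn too.

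Chromatin genes rose more often than they fell. Of 51 chromatin readers and modifiers 24 rose and 2 fell (1 fell without DFC+BCI library a), with a median of 0.29. The falls were in Brd3 (-0.53) and Hdac3 (-0.32, not past the threshold in 1 of 19 alternatives). After centring by transcript length 21 of the 51 rose and 4 fell, with a median of 0.16. Sirt1, a deacetylase, went from 9.36 and 11.4 to 34.3 and 33.1 FPKM (1.61). The histone H3 lysine 27 demethylase genes Kdm6b (1.55) and Kdm6a (1.19), the bromodomain gene Brd2 (1.12) and Hexim1 (0.81), an inhibitor of transcription elongation, rose, and Hdac1 (-0.14, adjusted p = 0.149) was not called. Of 49 splicing genes 11 rose and 8 fell, shares near those of all genes. Without DFC+BCI library b, 7 rose and 5 fell, and the falls were 2 without library a and 4 without untreated library a. The splicing kinase genes Clk1 (from 33.7 and 36.2 to 116 and 125 FPKM; 1.75) and Clk4 (1.52) and the SR-related genes Tra2a (0.89) and Tra2b (0.59) rose, and Hnrnpr fell (-0.55).

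Families picked after their values were seen added further patterns. Replication-type histone genes, whose mRNA normally ends without a poly(A) tail, rose in 6 of 10 cases and fell in 0; a further 24 reached the level minimum in 1 group only. Hist1h2bc was at 13.7 and 14.2 FPKM in the untreated libraries and 146 and 143 FPKM with DFC+BCI, an order of magnitude apart (log2 fold change 3.28, SE 0.0810, adjusted p = 2.1e-06), and Hist1h1c, a linker histone gene, went from 32.1 and 29.6 to 112 and 105 FPKM (1.78). The kit selects mRNA by its poly(A) tail, so more tailed transcripts and more transcripts cannot be told apart. Of 284 zinc finger genes 108 rose and 20 fell, with a median of 0.17 (13 and 10 fell without DFC+BCI library a or b). Zbtb2 (1.75), Zkscan14 (1.72) and Zfp948 (1.66) led them apart from Zfp36. Among 12 long RNAs that host snoRNAs 3 rose and 7 fell (4 without DFC+BCI library a): Snhg1 (from 116 and 119.9 to 374 and 368 FPKM; 1.64) and Snhg12 (1.24) were higher, and Dancr (from 10.2 and 9.47 to 2.35 and 2.02 FPKM; -1.77) and Snhg7 (-1.24) lower.

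Stem and lineage markers that were called all fell. In bulk RNA, fewer cells of a type and less RNA per cell cannot be told apart. Falls were called for 7 of 10 stem and progenitor markers and rises for 0, with a median of -0.48. Kit, the receptor on which the cells were selected, was at 11.5 and 11.7 FPKM in the untreated libraries and 6.66 and 6.91 FPKM with DFC+BCI, without overlap (log2 fold change -0.70, SE 0.0606, adjusted p = 0.000244). Myb, a factor of progenitor growth, went from 35.3 and 33.4 to 18.8 and 19.9 FPKM (-0.80) and Ly6a, which codes for SCA-1, from 481 and 499.7 to 278 and 289.6 FPKM (-0.79). Hoxa9 (0.08, adjusted p = 0.440) was not called. Of 13 neutrophil markers 7 fell and 0 rose. Gfi1, a repressor needed for neutrophil development, went from 17.2 and 16.6 to 7.56 and 8.99 FPKM (-0.95), and the granule genes Ctsg (-0.70) and Ms4a3 (-0.66) fell, while Prtn3 (-0.20, adjusted p = 0.450) and Ltf (-0.23, adjusted p = 0.0510) were not called. Falls also made up every call among monocyte (4 of 8), mast cell and basophil (6 of 10), eosinophil (3 of 4), erythroid (3 of 6) and megakaryocyte (2 of 7) markers. Mast cell falls were 3 without either DFC+BCI library or without untreated library b, and erythroid falls 1 without DFC+BCI library a or untreated library a. Named examples were Cd14 (-0.73), the IL-33 receptor gene Il1rl1 (-0.87), Ear6 (-1.34) and Gp5 (-1.34).

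Receptors and sensors of myeloid cells fell more often than they rose. Of 32 cytokine and chemokine receptor genes 16 fell and 2 rose (1 rose without untreated library b or either DFC+BCI library), with a median of -0.28. The rises were in Il4ra (0.41, not past the threshold in 4 of 19 alternatives) and Il10ra (0.41). Ccr1, a receptor for CCL3 and CCL5, was at 78.8 and 85.9 FPKM in the untreated libraries and 31.7 and 34.0 FPKM with DFC+BCI, a 2.51-fold lower mean with treatment (log2 fold change -1.30, SE 0.0876, adjusted p = 7.46e-05). Tnfrsf1b, a TNF receptor gene (-0.89), and Il2ra (-0.59) fell, and Csf1r (-0.16, adjusted p = 0.136) and Tnfrsf1a (-0.08, adjusted p = 0.577) were not called. Of 8 Toll-like receptors 5 fell and 0 rose (3 fell without DFC+BCI library b). Tlr13, which senses bacterial ribosomal RNA, went from 23.9 and 29.0 to 8.02 and 7.83 FPKM (-1.61), Tlr7 fell by 0.76, and Tlr2 (0.03, adjusted p = 0.800) and Tlr4 (0.01, adjusted p = 0.960) were not called. Of 8 Schlafen genes 4 fell, Slfn2 (from 179 and 176 to 89.3 and 85.7 FPKM; -1.01) the most, and of 7 Stefin A genes, near-identical copies of a cysteine protease inhibitor, 5 fell.

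Interferon response and antigen presentation genes also fell more often than they rose. Of 30 interferon response genes 4 rose and 12 fell, with a median of -0.23. Ifit1, an antiviral RNA binding protein, went from 28.1 and 32.3 to 12.3 and 12.0 FPKM (-1.24), Cmpk2 fell (-1.13), Mx2 rose (0.70), and Isg15 (-0.18, adjusted p = 0.190) and Bst2 (-0.02, adjusted p = 0.932) were not called. Of 22 antigen presentation genes 6 fell and 0 rose (3 fell without untreated library a or either DFC+BCI library). Ciita, the master regulator of MHC class II genes, went from 5.20 and 4.83 to 2.01 and 1.87 FPKM (-1.03) and H2-Aa, an MHC class II gene, fell by 0.43, while H2-K1 (0.09, adjusted p = 0.655) and B2m (-0.11, adjusted p = 0.267) of MHC class I were not called. Irf1, a factor of the interferon response, went the other way, from 53.4 and 47.5 to 157 and 151 FPKM (1.59).

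Of 37 myeloid lineage factors 7 rose and 7 fell, shares near those of all genes (3 and 4 without DFC+BCI library a). Id2, an inhibitor of helix-loop-helix factors, fell (from 106 and 118 to 60.6 and 56.1 FPKM; -0.93), and Spi1 (-0.27, adjusted p = 0.326) and Cebpb (0.16, adjusted p = 0.400) were not called. Of 19 JAK, STAT and Pim genes 5 rose and 2 fell (3 and 0 without either DFC+BCI library). Pim3 (from 16.9 and 12.5 to 57.4 and 63.3 FPKM; 1.98) and Pim1 (0.75), survival kinases induced by STAT signalling, rose, and Jak2 (0.06, adjusted p = 0.510) was not called.

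Small falls ran through genes of mitochondrial translation and respiration. Of 74 nuclear-encoded respiratory chain genes 28 fell and 0 rose, with a median of -0.22. Of 73 mitochondrial ribosomal protein genes 27 fell and 0 rose (median -0.21), and of 75 cytoplasmic ribosomal protein genes 13 fell and 0 rose (median -0.16), a share of falls near that of all genes. Cox6b1, a subunit of cytochrome oxidase, went from 409 and 379 to 248 and 247 FPKM (-0.67), Mrpl18 from 115 and 107 to 63.0 and 68.8 FPKM (-0.75) and Rpl26 from 301 and 332 to 143 and 160.0 FPKM (-1.06). Cox4i1 (-0.06, adjusted p = 0.753), Atp5b (-0.18, adjusted p = 0.115) and Rps2 (-0.13, adjusted p = 0.337) were not called. Transcript length moved with the comparison: the median log2 difference ran from -0.13 in the shortest of 5 equal classes of transcripts to 0.07 in the longest. The 2 untreated libraries differed from each other by 0.12 to -0.03 over the same classes, and the DFC+BCI libraries by -0.02 to less than 0.01 in size. After centring by length, 16 respiratory chain, 16 mitochondrial ribosomal and 1 cytoplasmic ribosomal genes fell (medians -0.12, -0.16 and -0.04). Quantile normalization gave 14, 22 and 1 and turned the median of the cytoplasmic list to 0.02. Without DFC+BCI library a the falls were 7, 5 and 1, without library b 13, 11 and 5, and without untreated library a 11, 12 and 2. Cytoplasmic falls were 6 without either 3-drug library.

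**Figure D4:**
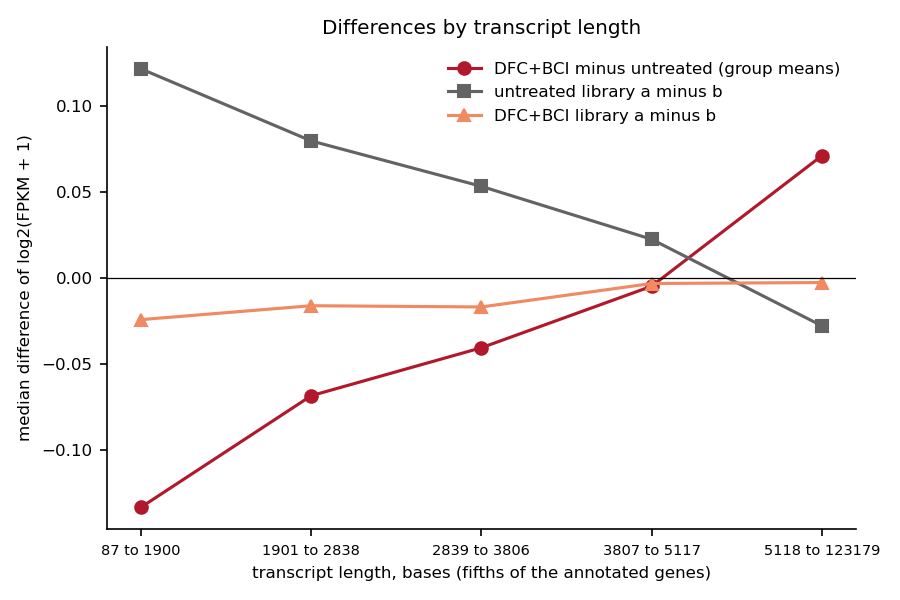
Median difference of log2(FPKM + 1) in 5 equal classes of the annotated genes by transcript length: DFC+BCI minus untreated group means (circles), untreated library a minus b (squares) and DFC+BCI library a minus b (triangles). The circles go from -0.13 to 0.07 and the squares from 0.12 to -0.03.

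Ribosome biogenesis and metabolic genes showed few large changes. Of 49 ribosome biogenesis genes 2 rose and 11 fell, the falls at a share near that of all genes. The falls were 2 without DFC+BCI library a, 5 without untreated library a or either 3-drug library and 7 without untreated library b, and 1 rose without untreated library a or either DFC+BCI library. Dkc1, the pseudouridine synthase, fell by 0.48, and Taf1d, a polymerase I factor that hosts snoRNAs, went from 34.4 and 40.5 to 64.1 and 71.7 FPKM (0.84). Insig1, which holds back cholesterol synthesis when sterols are ample, went from 51.0 and 46.0 to 164 and 162 FPKM (1.73), and the synthesis gene Hmgcs1 (0.63) rose while Acat2 fell (-0.79). Ndrg1, a hypoxia-linked gene, rose by 0.92, and the glycolysis genes Aldoa (0.04, adjusted p = 0.859) and Gapdh (-0.22, adjusted p = 0.184) were not called. Azin1, an inhibitor of antizyme, rose by 0.80 and Odc1, the first enzyme of polyamine synthesis, was not called (0.13, adjusted p = 0.137). The lysosomal galactosidase gene Gla rose (from 20.5 and 20.4 to 56.4 and 57.0 FPKM; 1.43), the small GTPase genes Rnd3 (1.57) and Rhob (1.09) rose, and Actb, cytoplasmic actin, fell (from 2469 and 2122 to 1515 and 1589.7 FPKM; -0.56, not past the threshold in 1 of 19 alternatives).

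Eif3j1, a subunit gene of a translation initiation factor, was at 16.7 and 26.9 FPKM in the untreated libraries and 0.531 and 0.411 FPKM with DFC+BCI. It met the level rule only through the untreated libraries, so its log2 difference of -3.92 is given with no test. Its near-identical copy Eif3j2 went in the opposite direction, from 38.3 and 35.8 to 70.9 and 77.8 FPKM, and how reads were divided between the copies was not tested. Other genes fell more than 2-fold. In order of size they included the pseudogene Apoo-ps (from 12.6 and 11.4 to 1.53 and 2.73 FPKM; -2.08), Apol7c (from 19.0 and 17.7 to 4.34 and 3.12 FPKM; -2.04), the C-type lectin gene Clec2d (from 22.5 and 29.3 to 5.74 and 5.41 FPKM; -2.02) and Tifab (from 19.6 and 18.7 to 5.89 and 6.68 FPKM; -1.47). S100a11, a calcium-binding protein gene, was at 841 and 841 FPKM in the untreated libraries and 302 and 318 FPKM with DFC+BCI, with close duplicates (log2 fold change -1.44, SE 0.0764, adjusted p = 2.65e-05). Smaller falls were those of Gapt (from 25.7 and 23.4 to 8.48 and 8.98 FPKM; -1.39) and the B cell and macrophage gene Cd180 (from 33.8 and 39.9 to 14.7 and 14.5 FPKM; -1.28). At the edge of the test, Crot was the last gene called (adjusted p = 0.0499) and Timp2, a metalloproteinase inhibitor gene, the first not called. At the edge of the level rule, Cds1 was the last gene inside, its second-highest library at 1.002 FPKM, and Arhgap29 the first outside, at 0.9996 FPKM.

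Genes with large changes included more single-exon genes than the whole set. Single-exon genes made up 18.6% of the annotated genes that rose at least 2-fold, 22.2% of those that fell at least 2-fold and 6.15% of all annotated genes, and the median numbers of exons were 4, 2.5 and 8. Over genes at the level minimum in both groups the shares were 12.5%, 16.7% and 5.82%, and the medians 5, 3 and 8. Promoter letters were counted in RefSeq windows of 300 bases (250 before to 50 after the start), both strands, which were matched for 8845 of the 10998 genes. Genes that reached the level minimum in 1 group only were kept in these classes, so the shares are a description. Of the 313 genes that rose at least 2-fold, 267 reached it in both groups, and the windows were not counted again over those. TGACGTCA, the element shown for Dusp1 and Ppp1r15a, was in 9.02% of the 255 windows of genes that rose at least 2-fold, 3.39% of the 5580 of genes not called and 1.88% of all 27025 windows. CACGTG, the E-box, was in 17.6%, 10.2% and 7.24%, and TGATGNAA, shown for Chac1, in 5.10%, 2.17% and 4.06%. GAANNTTC, shown for Hspa1a and Hspa1b, was in 8.24%, 5.52% and 7.95%, and TGANTCA, the AP-1 site, in 5.49%, 4.52% and 7.93%. CCGGAAG, to which ETS factors bind, was in 10.6%, 21.2% and 9.12%. Overlapping matches of different motifs were all kept. Among 1632 windows of genes that fell by less than 2-fold, TGACGTCA was in 2.21%, CACGTG in 9.74%, TGATGNAA in 2.51%, GAANNTTC in 5.45%, TGANTCA in 6.62% and CCGGAAG in 20.6%. The count is void for genes that fell at least 2-fold and for those that rose by less, since under 80% of each had a window (74.1% and 78.9%). A match is a run of letters and not evidence of binding.

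The same drug pair was also given on top of imatinib, in libraries that the comparison above does not contain. Both comparisons took each gene's spread from the same fit, so their calls are not independent. All 3 drugs against imatinib alone raised 2079 of the 10998 genes (18.9%) and lowered 1777 (16.2%), 35.1% in all. Without imatinib library a 2502 were called, and without 3-drug library b 2506. Of the 2006 genes that rose without imatinib, 1536 also rose with it (76.6% of the first list and 73.9% of the second), and 7 fell. Of the 2088 that fell, 1242 also fell with it (59.5% and 69.9%), and 10 rose. Of the 313 genes that rose at least 2-fold, 309 rose with imatinib, and of the 58 that fell at least 2-fold, 50 fell. The 2006 rises and 2088 falls include 156 and 48 genes that reached the level minimum in 1 group only, which were not set apart here. Across the genes the log2 fold changes of the 2 comparisons correlated at 0.834 (Pearson) and 0.797 (Spearman), which describes these 8 libraries and treats genes as points, not replicates. Hspa1a, Chac1 and Dusp1 changed by 7.82, 4.22 and 3.62 with imatinib, beside 7.33, 4.23 and 3.77 without it.

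The difference between the comparisons passed the test for 16 of the 10998 genes (0.145%), while 1379 had an unadjusted p under 0.05. Dusp6 was at 6.43 and 6.62 FPKM with imatinib and at 24.8 and 20.7 FPKM with all 3 drugs, a log2 fold change of 1.65 beside 0.51 without imatinib. Myc was at 13.3 and 15.0 FPKM with imatinib and at 26.0 and 22.0 FPKM with all 3 drugs, so that adding DFC+BCI lowered it in cells without imatinib and raised it in cells with it. These 16 calls are fragile, and among them Eif3j1 met the level rule only through the untreated libraries. Fewer calls were made when any 1 of the 8 libraries was left out, and not always of the same genes. With no filter on low values 0 were made, and 1567 genes had an unadjusted p under 0.05.

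**Figure D5:**
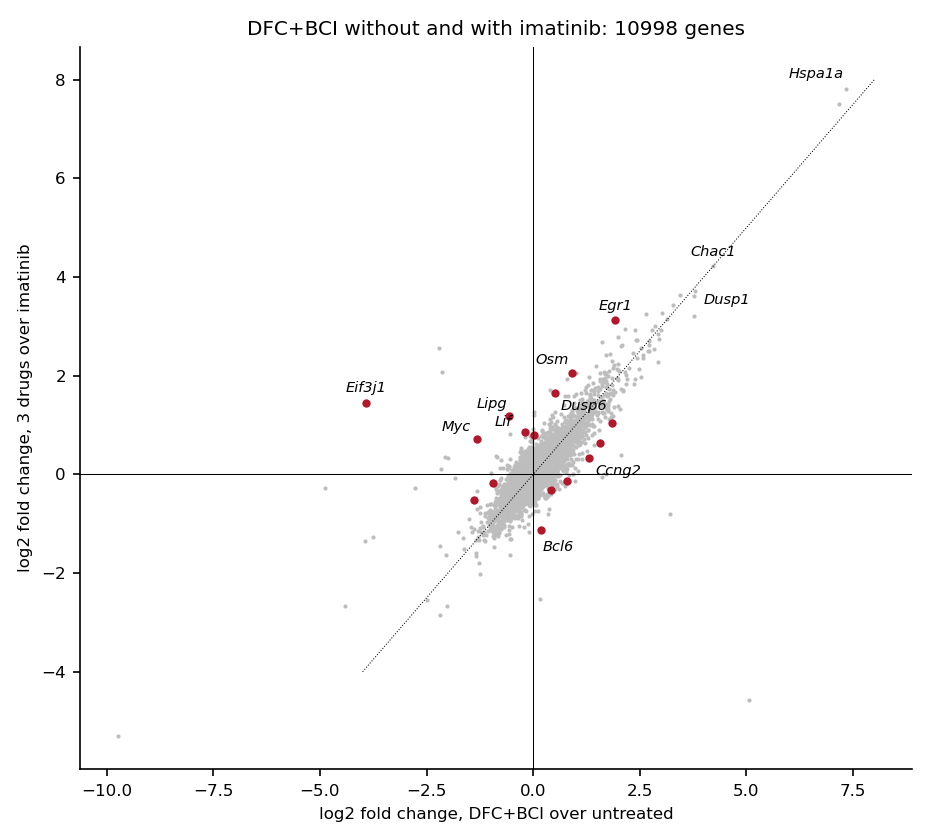
Log2 fold change of 3 drugs over imatinib against that of DFC+BCI over untreated for 10998 genes; red points are the 16 genes whose difference between the comparisons passed the test, and the dotted line marks equal change. Hspa1a, Chac1 and Dusp1 lie near the line, and Eif3j1, Myc, Lipg and Bcl6 away from it.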

How the data were processed

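RNA sequencing of 11 libraries (TruSeq stranded mRNA kit, per the labels' protocols) was deposited as 1 table of expression per gene symbol. The authors' processing used TopHat, Cufflinks and mm10, per the submitters' processing notes, and the deposited values are read as FPKM from those tools and from their range, since the header names no unit. No counts were given, so absolute depth and intervals that need it are unknown; low-value steps put the other 3 libraries at 94.6% to 107% of the depth of DFC+BCI library a. Of 23444 rows, 5019 were 0 in every library and 27 had symbols turned into dates.

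log2(FPKM + 1) was fitted for the 11442 genes at 1 FPKM or more in at least 2 libraries with limma 3.58.1 (R 4.3.3, trend, 1 coefficient per group, all 11 libraries, 4 residual degrees of freedom), with Benjamini-Hochberg adjustment over all genes fitted. Fold changes are on the log2(FPKM + 1) scale, which understates those of low genes, while folds in mean FPKM have no pseudocount. The script was tested on simulated data. A list value in parentheses after a gene is its log2 fold change, with an adjusted p where it was not called. Errors are limma's moderated SE of the log2 fold change, for n = 2 libraries a group. Their spread comes from the 4 duplicate pairs and from genes of similar level, not from the 2 groups alone. Duplicate columns carry no culture or animal mark.

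The members, gene lists and tests were chosen with earlier results of these data known. Named genes were Fos, Dusp1 and Dusp6, the 20 largest rises and 20 largest falls at 5 FPKM or more, up to 5 called and 2 other members per list, threshold neighbours and up to 10 genes whose change differed with imatinib. Chosen after their values were seen were Eif3j2, Nr4a1, Egr1, Fosl1, Fosl2, Junb, Atf4, Trib3, Hspa5, Hsf1, Nfe2l2, Il6, Mcl1, Bcl2a1a, S100a11, Gapt, Actb, list members that moved against the rest (Atf7, Egr3, Klf13, Dusp22, Psme4, Eif2ak2, Ndc80, Il4ra, Il10ra, Brd3, Hdac3) and the histone, zinc finger, snoRNA host, Toll-like receptor, Schlafen and Stefin A families. Alternatives covered pseudocount, level filter, libraries fitted, normalization, variance trend and each replicate left out; centring by transcript length was added after the data were seen. Promoters came from RefSeq (GRCm38.p6) and gene structures from GENCODE vM21. Doses are not printed because their unit in the labels is in doubt.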

Additional observations from a re-analysis of the deposited data

Results flagged for a closer look

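For 16 genes the change with DFC+BCI differed according to imatinib, by limma's test of the difference between both comparisons (adjusted over all genes fitted; 2 libraries a group). The difference is the log2 fold change of 3 drugs over imatinib minus that of DFC+BCI over untreated. It was positive in 10 genes and negative in 6. Eif3j1 counts among the positive differences, though it met the level rule only through the untreated libraries. The 10 described first were taken by the rule for named genes, by adjusted p, where Bcl2a1a shares the value of the last of them.

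Lipg, an endothelial-type lipase gene, had log2 fold changes of -0.57 without imatinib and 1.18 with it, a difference of 1.75 (adjusted p = 0.00534). Myc had log2 fold changes of -1.32 without imatinib and 0.72 with it, a difference of 2.04 (adjusted p = 0.0133). Myc and Lipg fell without imatinib and rose with it. Eif3j1, which has the near-identical copy Eif3j2, had log2 fold changes of -3.92 without imatinib and 1.45 with it, a difference of 5.37. It was under 1 FPKM in the DFC+BCI libraries and met the level rule only through the untreated libraries. Its difference is therefore given as a description, with no p-value, although it is counted among the calls.

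Osm, a cytokine gene of the IL-6 family, was at 60.0 and 51.3 FPKM untreated, 109.7 and 102 FPKM with DFC+BCI, 12.4 and 13.7 FPKM with imatinib and 57.4 and 57.7 FPKM with all 3 drugs. It had log2 fold changes of 0.92 without imatinib and 2.06 with it, a difference of 1.14 (adjusted p = 0.0363). Lif, another cytokine gene of that family, was at 19.0 and 17.3 FPKM untreated and at 3.99 and 3.68 FPKM with imatinib. Lif had log2 fold changes of -0.20 without imatinib and 0.85 with it, a difference of 1.05 (adjusted p = 0.0343). For Dusp6 the changes were 0.51 without imatinib and 1.65 with it, a difference of 1.14 (adjusted p = 0.0363), and for Fam60a, a subunit gene of the SIN3-HDAC complex, 0.03 without imatinib and 0.80 with it, a difference of 0.77 (adjusted p = 0.0363).

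Bcl6, Ccng2 and 2810474O19Rik had negative differences. Bcl6, a transcriptional repressor gene, was at 1.98 and 1.88 FPKM untreated, 2.42 and 2.27 FPKM with DFC+BCI, 7.02 and 8.28 FPKM with imatinib and 2.80 and 3.10 FPKM with all 3 drugs. It had log2 fold changes of 0.19 without imatinib and -1.13 with it, a difference of -1.32 (adjusted p = 0.0299). Ccng2, a FOXO-linked cyclin gene, had log2 fold changes of 1.31 without imatinib and 0.33 with it, a difference of -0.98 (adjusted p = 0.0296), and 2810474O19Rik of 1.85 without imatinib and 1.04 with it, a difference of -0.81 (adjusted p = 0.0363).

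The remaining 6 differences were 0.77 (adjusted p = 0.0363) for Bcl2a1a, 0.88 (adjusted p = 0.0468) for Gapt, 1.19 (adjusted p = 0.0480) for Egr1, -0.93 (adjusted p = 0.0467) for Klhl24, -0.92 (adjusted p = 0.0468) for Pde4b and -0.73 (adjusted p = 0.0487) for G2e3, which were chosen after their values were seen.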

How the results depend on the processing

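Of the 317 called genes followed one by one, 284 could be fitted in all 19 alternatives, and 231 of these stayed past the threshold in each. The other 33 were each left out by 1 alternative's level filter, and 28 of these stayed past the threshold in the rest. None of the 317 changed direction where fitted. The count of genes called between DFC+BCI and untreated cells, 4094, ranged from 2112 to 3942 when 1 library was left out, and that for 3 drugs against imatinib, 3856, from 2502 to 3936. A lone library left in a group is assumed to vary like the other groups. The lowest values came without DFC+BCI library a and without imatinib library a. Every other alternative gave 3259 to 4090 genes for DFC+BCI, and median scaling made 58% of its calls rises in place of 49%. The count of 16 genes whose change differed with imatinib became 0 with no filter on low values (limma, 1567 at an unadjusted p under 0.05). It became 10 with quantile normalization, 6 with no mean-variance trend and 27 with centring by transcript length. The count was lower when any 1 library of the 8 was left out, and the genes called were not always among the 16. The cause was not tested. Of the 58 gene lists, 29 had a median above that of all genes, and 28 to 32 did under the alternatives. No scaling moved the median of all genes by more than 0.1 on the log2 scale. The difference with imatinib cannot be had from 4 libraries alone. No paired analysis was possible because the columns carry letters or no mark while the titles carry numbers, so the fit with the replicate number as a block was not run. Depth is unknown, and 2 libraries per group limit what small changes can be called.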
